A study of Rattus norvegicus with 6 samples.

Results

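GSG1, SPEG, RSPO1, CPNE7, RHBDL3 and TMEM215 are 6 genes whose RNA stood lower in the glomeruli of every rat transgenic for the angiotensin II type 1 receptor (AT1R) than in those of either wild-type rat. They were taken from the 26319 gene IDs of the count table by the symbols in the authors' deposited tables, 1 Ensembl ID for each symbol, and all 6 are among the 13426 genes tested after a filter on low counts. Because the difference from wild type chose them, their levels against wild type are given here as a description and carry no test. AC1903 was tested against vehicle, a contrast the choice did not use directly. The choice did require both AC1903 libraries to lie below WT, so a gene that AC1903 had brought to the WT level could not be among the 6, and their AC1903 values are limited by that.

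Glomeruli, the capillary tufts that filter blood in the kidney, were isolated for polyadenylated RNA from 6 Sprague Dawley rats in 3 groups of 2. The WT rats had no transgene and received vehicle, at 20.4 and 21.9 weeks of age (replicates 1 and 2). The AT1R Tg vehicle rats carried the transgene and received vehicle, at 20.4 and 17.4 weeks. The AT1R Tg AC1903 rats carried it and received AC1903, a small-molecule inhibitor of the cation channel TRPC5, at 23.0 and 20.4 weeks. The labels give no dose, route or duration of AC1903 and do not name the promoter of the transgene. As background, the AT1R Tg rat is known from earlier work as a line in which the nephrin promoter directs the receptor to podocytes, the cells that wrap the glomerular capillaries.

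Total expected counts ran from 25045081 to 36026772 in WT and from 12325515 to 14230770 in the AT1R Tg groups, so depth moved with genotype. Mitochondrially encoded genes took 22.3% to 28.3% of counts in WT and 25.3% to 40.5% in the AT1R Tg groups, with vehicle replicate 2 the highest. Of 30 listed podocyte symbols 2 had no tested gene, and COL4A3 was counted under 2 gene IDs. Podocyte markers identified the tissue, with 29 gene IDs tested, none of them at 0 in any library. Their summed level was 23894 and 20533 CPM (counts scaled to library size after TMM normalisation) in WT, 25118 and 14337 CPM in vehicle, and 16391 and 20710 CPM in AC1903. Proximal tubule markers, which belong to cells outside the glomerulus, summed to 3512 and 2221 CPM in WT, 4943 and 9006 CPM with vehicle and 5238 and 5165 CPM with AC1903. Vehicle replicate 2 therefore stood apart by its mitochondrial and tubular RNA, and the changes with AC1903 are also given without it where it moved them by over 1.5 times or turned their direction.

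The 6 genes belong to unrelated families. RSPO1 is a secreted R-spondin, which binds LGR receptors and the ubiquitin ligases ZNRF3 and RNF43, keeps Frizzled receptors at the cell surface and so strengthens Wnt signalling. SPEG is a kinase of the myosin light chain kinase family, best known from the junctional membranes that couple excitation to contraction in striated muscle. RHBDL3 is a member of the rhomboid family of intramembrane proteases, CPNE7 a copine, a class of proteins that bind phospholipid in a calcium-dependent way, and GSG1 a membrane protein first described in male germ cells. TMEM215 is a transmembrane protein with no role stated here. In bulk glomerular RNA, fewer cells of a type and less RNA per cell cannot be told apart.

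Sequence upstream of the start site is shown for the members present in the RefSeq promoter table (build GRCr8), since the 6 genes were lower together. SPEG, RSPO1 and TMEM215 were found there, 3 of 6 members. CPNE7, GSG1 and RHBDL3 are named only. Each line gives the 250 bases before the start, all on the plus strand, at chr9:84314137-84314386 for SPEG, chr5:142536040-142536289 for RSPO1 and chr5:60408337-60408586 for TMEM215. Capitals mark matches to the motifs described after them.
SPEG: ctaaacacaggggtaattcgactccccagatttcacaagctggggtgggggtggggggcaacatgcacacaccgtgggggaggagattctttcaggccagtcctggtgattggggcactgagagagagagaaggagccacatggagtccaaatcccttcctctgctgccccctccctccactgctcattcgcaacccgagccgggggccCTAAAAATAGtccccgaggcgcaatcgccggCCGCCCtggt
RSPO1: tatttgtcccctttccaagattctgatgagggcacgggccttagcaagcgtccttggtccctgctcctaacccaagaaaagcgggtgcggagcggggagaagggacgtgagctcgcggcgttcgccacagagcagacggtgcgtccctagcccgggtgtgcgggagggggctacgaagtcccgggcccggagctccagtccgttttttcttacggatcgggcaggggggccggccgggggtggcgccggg
TMEM215: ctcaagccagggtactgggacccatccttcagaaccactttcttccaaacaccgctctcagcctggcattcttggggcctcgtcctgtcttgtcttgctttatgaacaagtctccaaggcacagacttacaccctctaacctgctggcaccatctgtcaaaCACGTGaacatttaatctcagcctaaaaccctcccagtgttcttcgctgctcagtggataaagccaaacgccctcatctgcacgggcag

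Searched on both strands, the 6 motifs were the GC box GGGCGG, the E-box CACGTG, the TATA sequence TATAAA, the TCF/LEF sequence ATCAAAG, and by name the MEF2 box and the CArG box of serum response factor. SPEG held a MEF2 box, beginning 41 bases before the start, and a GC box on the minus strand, beginning 10 bases before it. TMEM215 held an E-box beginning 89 bases before the start, and RSPO1 held none of the 6. A second SPEG start in the table held none either. Over 33465 promoter windows of the same length, 30.5% held the GC box, 5.59% the E-box and 2.96% the MEF2 box. The TATA sequence can lie within a MEF2 box. The MEF2 box was chosen after the SPEG promoter had been read, so its match there is a description. The 3 members differed in base composition, with 60.8% G and C for SPEG, 66.4% for RSPO1 and 52.0% for TMEM215, beside a median of 51.2% over all windows.

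The levels follow gene by gene, from the secreted ligand to the membrane and cytosolic proteins. RSPO1 (ENSRNOG00000009656) stood at 9.12 and 12.0 CPM in WT, 0.708 and 1.14 CPM in AT1R Tg vehicle and 1.58 and 2.88 CPM in AT1R Tg AC1903. Every AT1R Tg library lay below both WT libraries, and every AC1903 library lay above both vehicle libraries. The group means were 10.5 ± 2.01 CPM in WT, 0.924 ± 0.305 CPM in vehicle and 2.23 ± 0.917 CPM in AC1903 (SD, n = 2). Relative to WT the mean was 11.4-fold lower with vehicle and 4.73-fold lower with AC1903. Few reads lay behind the low values. The vehicle libraries held 10 and 14 counts (exact 95% Poisson intervals 4.80 to 18.4 and 7.65 to 23.5), and the AC1903 libraries 19 and 36 counts (11.4 to 29.7 and 25.2 to 49.8). These intervals cover counting error only, and that of AC1903 replicate 1 overlaps those of both vehicle libraries.

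GSG1 (ENSRNOG00000008518) stood at 32.0 and 41.6 CPM in WT, 2.76 and 4.40 CPM with vehicle and 2.41 and 3.84 CPM in AC1903. Vehicle and AC1903 libraries overlapped each other, and the lower WT library was 7.28-fold above the highest AT1R Tg library. The means were 36.8 ± 6.81, 3.58 ± 1.16 and 3.12 ± 1.01 CPM (SD, n = 2), so that vehicle kept 9.72% and AC1903 8.49% of the WT level.

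SPEG (ENSRNOG00000019850) stood at 69.9 and 77.3 CPM in WT, 18.2 and 9.69 CPM with vehicle and 9.90 and 9.43 CPM with AC1903. Vehicle replicate 1 stood highest among the AT1R Tg libraries, and the other 3 lay close together. The means were 73.6 ± 5.20, 13.9 ± 6.01 and 9.67 ± 0.330 CPM (SD, n = 2), which is 18.9% of WT with vehicle and 13.1% with AC1903.

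TMEM215 (ENSRNOG00000042246) stood at 15.4 and 16.7 CPM in WT, 4.88 and 5.45 CPM with vehicle and 3.58 and 2.80 CPM with AC1903. The 3 groups did not overlap, with WT highest and AC1903 lowest. The means were 16.0 ± 0.947, 5.17 ± 0.403 and 3.19 ± 0.551 CPM (SD, n = 2), or 32.2% of WT with vehicle and 19.9% with AC1903.

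CPNE7 (ENSRNOG00000015397) stood at 36.2 and 54.5 CPM in WT, 16.3 and 20.9 CPM with vehicle and 13.1 and 14.1 CPM with AC1903. The same order of groups held without overlap, although the WT libraries differed from each other by 1.50-fold. The means were 45.3 ± 12.9, 18.6 ± 3.23 and 13.6 ± 0.711 CPM (SD, n = 2), or 41.1% and 30.1% of WT.

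RHBDL3 (ENSRNOG00000005515) stood at 67.2 and 68.3 CPM in WT, 31.0 and 27.8 CPM with vehicle and 23.8 and 30.3 CPM with AC1903. It had the smallest fold of the 6 against WT, and its WT libraries differed from each other by 1.02-fold. The means were 67.7 ± 0.801, 29.4 ± 2.23 and 27.0 ± 4.60 CPM (SD, n = 2), or 43.4% and 39.9% of WT. No member was absent from AT1R Tg glomeruli, since every library held at least the 10 counts of RSPO1, so "lower" describes the 6 genes more closely than "lost".

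**Figure D1:**
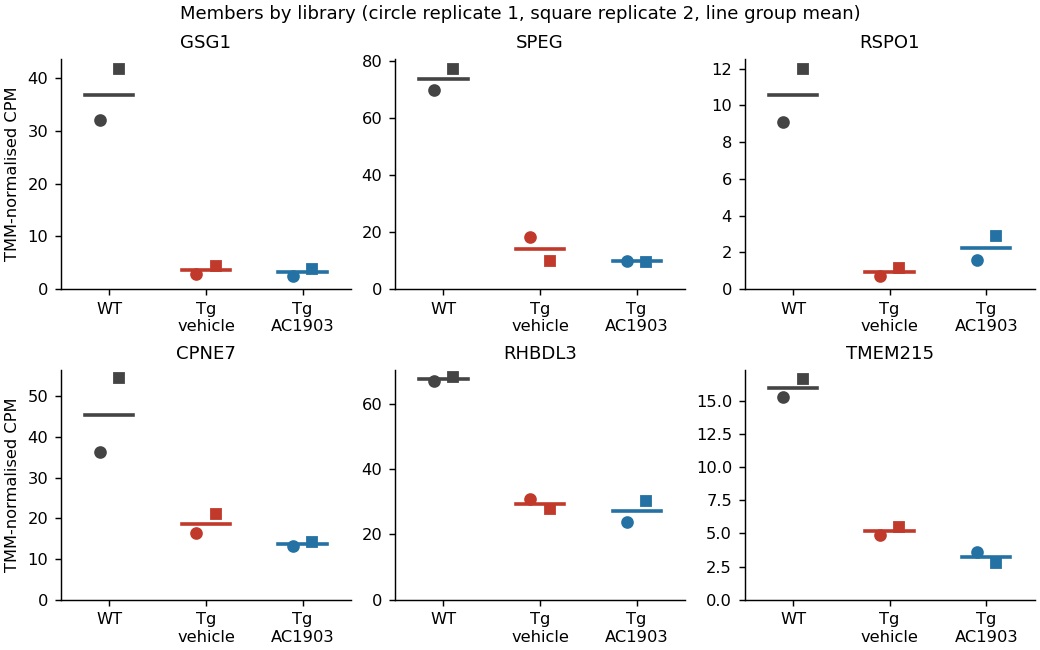
TMM-normalised CPM (vertical axes, from 0) of the 6 genes in each library, with circles for replicate 1, squares for replicate 2 and lines for group means. In every panel the 4 AT1R Tg points lie below both WT points; for RSPO1 the AC1903 points (1.58 and 2.88 CPM) lie above the vehicle points (0.708 and 1.14 CPM).

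Rats of 20.4 weeks are present in all 3 groups, as WT replicate 1, vehicle replicate 1 and AC1903 replicate 2. At this shared age GSG1 stood at 32.0, 2.76 and 3.84 CPM, SPEG at 69.9, 18.2 and 9.43 CPM, and RSPO1 at 9.12, 0.708 and 2.88 CPM, in that order of groups. TMEM215 stood at 15.4, 4.88 and 2.80 CPM, CPNE7 at 36.2, 16.3 and 14.1 CPM, and RHBDL3 at 67.2, 31.0 and 30.3 CPM. These are the values at 1 age, with 1 library a group and no test, and the choice of the genes fixes that WT is the highest.

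On the log2 scale of the edgeR fit, the differences of vehicle from WT ran from -3.51 (RSPO1, SE 0.48) through -3.37 (GSG1, SE 0.33), -2.40 (SPEG, SE 0.28), -1.63 (TMEM215, SE 0.27) and -1.28 (CPNE7, SE 0.24) to -1.20 (RHBDL3, SE 0.18). Those of AC1903 from WT were -2.24 (RSPO1, SE 0.43), -3.55 (GSG1, SE 0.33), -2.93 (SPEG, SE 0.29), -2.33 (TMEM215, SE 0.29), -1.73 (CPNE7, SE 0.24) and -1.32 (RHBDL3, SE 0.18). The medians over the 6 genes were -2.01 and -2.28, beside medians of -0.03 and 0.00 over all genes tested. These 2 comparisons share the WT libraries. In the authors' deposited table of vehicle against WT the log2 fold changes were -3.50 for RSPO1, -3.34 for GSG1, -2.37 for SPEG, -1.61 for TMEM215, -1.26 for CPNE7 and -1.18 for RHBDL3. All 4 AT1R Tg libraries lay below both WT libraries in 1374 of the 13426 genes tested (10.2%), so the criterion that the 6 share was met by many genes.

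The gap between the groups was ranked as the log2 CPM (prior count 2) of the lower WT library minus that of the highest AT1R Tg library, over 12611 genes with a mean of at least 1 CPM. GSG1 ranked 2 with a gap of 2.84, SPEG 3 with 1.94, RSPO1 4 with 1.63, TMEM215 8 with 1.48, RHBDL3 12 with 1.11 and CPNE7 20 with 0.79. The genes between them in this order included LMOD2, a leiomodin of the muscle actin filament, at rank 5 (gap 1.61), PLXDC1 at rank 7 (1.48), ARPP21 at rank 11 (1.12) and TNNC1, the slow skeletal and cardiac troponin C, at rank 19 (0.85). The kinesin KIF22 appeared under 2 gene IDs, at ranks 6 and 9. Rank 1 was held by an ID of POLR2H, an RNA polymerase subunit, listed at 0 in all 4 AT1R Tg libraries and at 1.40 and 7.59 CPM in WT. A second POLR2H ID stood at 6.03 and 3.01 CPM in WT and between 8.15 and 9.07 CPM in the AT1R Tg libraries, and the division of reads between such copies by the authors' counting is uncertain. At the edge of the criterion, where the gap passes 0, PRPF31, SEC14L2 and EIF3D lay just inside (gaps 0.000283, 0.000144 and 0.000055) and PLD1, SEC11A and EXOSC9 just outside (-0.000014, -0.000112 and -0.000173).

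**Figure D2:**
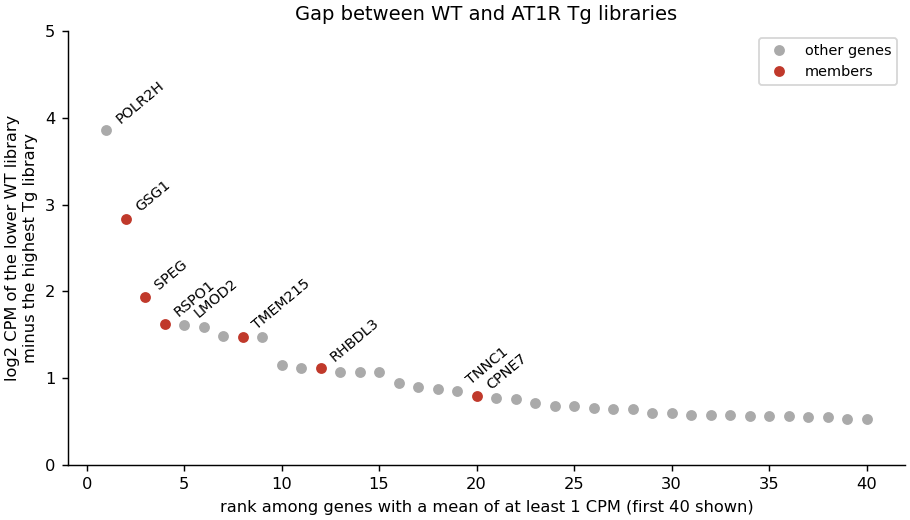
Gap between WT and AT1R Tg libraries in log2 CPM (vertical axis) against rank (horizontal axis) for the first 40 of 12611 genes, with the 6 members in red and other genes in grey. GSG1, SPEG and RSPO1 hold ranks 2 to 4 and CPNE7 rank 20; the value of POLR2H rests on libraries at 0 and on the prior count.

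AC1903 was then compared with vehicle within the transgenic rats, to ask whether the TRPC5 inhibitor moved these genes. Age moved in part with treatment here, at 23.0 and 20.4 weeks with AC1903 and 20.4 and 17.4 weeks with vehicle. None of the 6 genes passed an adjusted p of 0.05 in edgeR's quasi-likelihood test, in DESeq2 or in limma-voom. In edgeR 2 of 6 had an unadjusted p under 0.05, RSPO1 and TMEM215, where 8.12% of all genes tested did, and edgeR called 0% of all genes. DESeq2 called 0.499% of all genes and none of the members, 2 of which had an unadjusted p under 0.05. In limma-voom, and in edgeR fitted to the 2 groups alone, 0 of the 6 members had one. Of the 6 log2 changes 5 were negative and 1, that of RSPO1, positive, with a median of -0.32 beside -0.02 over all genes.

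RSPO1 was 2.43-fold higher with AC1903 than with vehicle (95% interval 1.11 to 5.28; log2 change 1.28, SE 0.49, unadjusted p = 0.0302 and adjusted p = 0.602 in edgeR). The value rested in part on AC1903 replicate 2, without which the log2 change was 0.75, and it was 1.64 without vehicle replicate 2. With age in weeks as a covariate the log2 change of RSPO1 was 1.76. Its AC1903 mean was still 21.2% of WT, against 8.77% with vehicle. Macrophage markers also moved between these groups, with a summed level of 470 and 605 CPM in vehicle and 663 and 1231 CPM in AC1903. For these markers and for RSPO1, AC1903 replicate 2 was the highest AT1R Tg library. In WT the markers summed to 460 and 691 CPM, while RSPO1 stood at 9.12 and 12.0 CPM. Of the 17 macrophage genes tested 16 had positive log2 changes, and none was at 0 in any library. Markers of the loop, distal tubule and collecting duct summed to 515 and 453 CPM in WT, 498 and 514 CPM with vehicle and 727 and 692 CPM with AC1903. From vehicle to AC1903, 12 of their 14 log2 changes were positive, and all 20 proximal tubule genes had negative log2 changes. None of these genes was at 0 in any library. Of all genes tested, 52.1% had negative log2 changes in this comparison. The proximal tubule markers summed to 4943 and 9006 CPM with vehicle and 5238 and 5165 CPM with AC1903. Their fall thus rested on vehicle replicate 2, since vehicle replicate 1 lay below both AC1903 libraries. The part of these 3 cell types in the members' values was not tested.

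TMEM215 stood in the opposite direction, at 0.617-fold of the vehicle level (95% interval 0.389 to 0.978; log2 change -0.70, SE 0.29, unadjusted p = 0.0420 and adjusted p = 0.606 in edgeR). The unadjusted p of TMEM215 was 0.128 in limma-voom. In edgeR it was 0.149 with the 2 groups alone and 0.102 with age in weeks as a covariate. It stayed under 0.05 in DESeq2 (unadjusted p = 0.0497) and with the other scalings and filters in edgeR. Both AC1903 libraries lay below both vehicle libraries for TMEM215 and CPNE7, an arrangement found in 18.4% of all genes tested. The reverse arrangement, seen in RSPO1, was found in 19.9%. CPNE7 stood at 0.733-fold of vehicle (95% interval 0.498 to 1.08, adjusted p = 0.659 in edgeR), and its log2 change of -0.45 became -0.27 without vehicle replicate 2.

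SPEG stood at 0.691-fold of vehicle (95% interval 0.443 to 1.08, adjusted p = 0.652 in edgeR). Its log2 change of -0.53 became -0.01 without vehicle replicate 1, -0.92 without vehicle replicate 2 (unadjusted p = 0.00199 and adjusted p = 0.471 in edgeR) and -0.96 with age in weeks as a covariate. GSG1 stood at 0.880-fold (95% interval 0.509 to 1.52, adjusted p = 0.896 in edgeR) and RHBDL3 at 0.919-fold (0.694 to 1.22, adjusted p = 0.866 in edgeR). For both the interval reached to either side of no change, and for GSG1 the direction turned with age in the model and when AC1903 replicate 1 or vehicle replicate 2 was left out. RHBDL3, at a log2 change of -0.12, became -0.21 without vehicle replicate 2 and 0.0051 without AC1903 replicate 1. The authors' deposited table, in which 0.378% of the genes listed had an adjusted p under 0.05 in this comparison, gives 0.997 for every member, with log2 fold changes from -0.70 (TMEM215) to 1.28 (RSPO1).

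**Figure D3:**
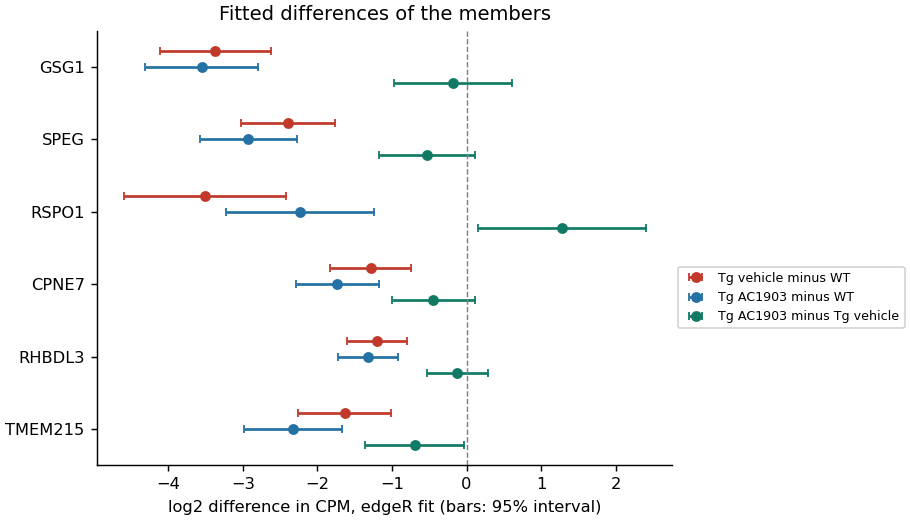
Fitted log2 differences (horizontal axis) of the 6 genes, with bars for 95% intervals, for AT1R Tg vehicle minus WT (red), AT1R Tg AC1903 minus WT (blue) and AT1R Tg AC1903 minus AT1R Tg vehicle (green). The red and blue differences chose the genes and are descriptive; the green ones run from -0.70 (TMEM215) to 1.28 (RSPO1).

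None of the other genes listed for the R-spondin and Wnt pathway passed in edgeR, and RSPO1 was not tested against WT here. EdgeR called 0.0745%, 0.0372% and 0% of all genes in vehicle against WT, AC1903 against WT and AC1903 against vehicle, and DESeq2 4.25%, 1.35% and 0.499%. An edgeR count of 0 in a short list therefore says little about it. Over all genes tested, 11.9% had an unadjusted p under 0.05 in vehicle against WT, 11.1% in AC1903 against WT and 8.12% in AC1903 against vehicle, and the counts at that threshold that follow for each list can be read against these shares. Of 25 other ligand and secretion genes 7 were tested, and edgeR called 0 in any of the 3 comparisons, as did DESeq2 and limma-voom. In edgeR 0, 1 and 1 of the 7 had an unadjusted p under 0.05 for vehicle against WT, AC1903 against WT and AC1903 against vehicle. In both cases the gene was WNT11, at means of 0.711 CPM in WT, 1.17 CPM in vehicle and 0.0416 CPM in AC1903. These levels are close to the floor, with AC1903 replicate 2 at 0. Their median log2 difference was -0.16 for vehicle and -0.44 for AC1903 against WT. WNT5B, a noncanonical Wnt ligand, stood at 47.6 ± 8.54 CPM in WT, 34.3 ± 9.92 CPM in vehicle and 32.4 ± 8.58 CPM in AC1903 (SD, n = 2), and WLS, which carries Wnt ligands to the cell surface, at 178 ± 2.67, 190 ± 18.5 and 181 ± 12.8 CPM. Among receptors and their ligases 17 genes were tested, with a median of 0.04 for vehicle and 0.32 for AC1903 against WT. LGR4, an R-spondin receptor, stood at 67.9 ± 15.5 CPM in WT, 69.8 ± 8.21 CPM in vehicle and 88.9 ± 11.9 CPM in AC1903. The Frizzled receptor FZD1 stood at 35.5 ± 9.64, 78.3 ± 33.5 and 58.9 ± 9.24 CPM and FZD2 at 80.0 ± 1.66, 54.3 ± 8.40 and 49.3 ± 10.3 CPM. EdgeR called none of the 17 in any comparison, while DESeq2 called FZD1 higher in vehicle than in WT (adjusted p = 0.0190). At an unadjusted p under 0.05 edgeR had 3, 4 and 1 of them in vehicle against WT, AC1903 against WT and AC1903 against vehicle.

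Among 21 inhibitors, transducers and targets of Wnt signalling that were tested, edgeR called 0, with 1, 1 and 0 at an unadjusted p under 0.05 in the same order. NKD2, an inhibitor that binds Dishevelled, stood at 86.0 ± 15.5 CPM in WT, 204 ± 90.4 CPM in vehicle and 195 ± 6.47 CPM in AC1903 (SD, n = 2), and DESeq2 called it higher in both AT1R Tg groups (adjusted p = 0.00246 and 0.0105). The Wnt antagonist DKK2 stood at 246 ± 4.45, 193 ± 14.5 and 201 ± 0.0531 CPM. The list's median log2 difference was -0.07 for vehicle and 0.08 for AC1903 against WT.

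Genes named for striated muscle were examined beside SPEG. Of the 17 tested from 29 listed symbols, 5 had all 4 AT1R Tg libraries below both WT libraries, where 10.2% of all genes tested did. DES, the muscle intermediate filament protein desmin, stood at 168 and 231 CPM in WT, 118 and 111 CPM with vehicle and 88.3 and 74.3 CPM with AC1903. TNNC1 stood at 356 and 480 CPM in WT, 198 and 145 CPM with vehicle and 102 and 155 CPM with AC1903. Both had WT above every AT1R Tg library.

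Neither passed in edgeR (DES log2 difference -0.80, SE 0.19, adjusted p = 0.180 for vehicle and -1.30, SE 0.20, adjusted p = 0.0960 for AC1903; TNNC1 -1.29, SE 0.26, adjusted p = 0.174 and -1.70, SE 0.27, adjusted p = 0.116). DESeq2 called both lower in both groups, with adjusted p = 0.0143 and 2.13e-06 for DES and 0.000743 and 4.59e-07 for TNNC1. EdgeR called 0.0745% of all genes for vehicle and 0.0372% for AC1903 against WT, and DESeq2 4.25% and 1.35%. RYR1, the calcium release channel of skeletal muscle, stood at 35.0 and 22.3 CPM in WT, 16.3 and 8.95 CPM with vehicle and 10.7 and 17.2 CPM with AC1903, and no tool called it. LMOD2, named from the ranking of gaps and so chosen by its values, stood at 13.2 and 17.9, 4.25 and 0.977, and 2.00 and 2.48 CPM. The list as a whole was not shifted to the same degree. Its median log2 difference from WT was -0.04 for vehicle and -0.27 for AC1903. Of the 17 genes 9 and 10 were negative, and 8 and 7 positive. CACNA1C stood at 1.00 and 0.976 CPM in WT, 2.76 and 2.36 CPM with vehicle and 1.50 and 4.80 CPM with AC1903. ACTN2 stood at 0.897 and 0.895, 2.97 and 0.977, and 0.250 and 0 CPM. In edgeR 4, 6 and 3 of the 17 had an unadjusted p under 0.05 for vehicle against WT, AC1903 against WT and AC1903 against vehicle. Smooth muscle and mesangial markers, which include DES, summed to 1290 and 1402 CPM in WT, 1279 and 1016 CPM with vehicle and 960 and 1085 CPM with AC1903. Their median log2 differences from WT were -0.13 and -0.25 over 15 genes, none at 0 in any library. Of the 15 genes 4 had all AT1R Tg libraries below WT, where 10.2% of all genes tested did. Their part in the SPEG values was not tested.

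**Figure D4:**
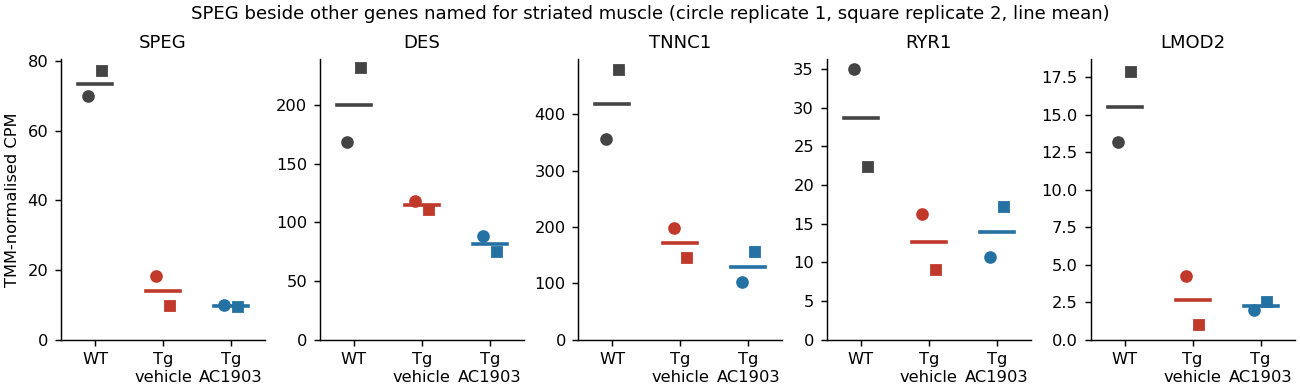
TMM-normalised CPM (vertical axes, from 0) of SPEG, DES, TNNC1, RYR1 and LMOD2 in each library, with circles for replicate 1, squares for replicate 2 and lines for group means. In each panel the 4 AT1R Tg points lie below both WT points, with SPEG at 9.43 to 18.2 CPM against 69.9 and 77.3 CPM in WT. Genes of the muscle list that stood higher than in WT are not shown.

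No relative of CPNE7, RHBDL3 or GSG1 passed in edgeR, which called 0.0745%, 0.0372% and 0% of all genes in vehicle against WT, AC1903 against WT and AC1903 against vehicle. DESeq2 called 4.25%, 1.35% and 0.499% in the same order. An edgeR count of 0 in such short lists therefore says little about these families. The 4 other copines measured were CPNE8 at 33.2 ± 0.308, 28.4 ± 0.410 and 37.9 ± 5.56 CPM in WT, vehicle and AC1903, CPNE2 at 8.89 ± 0.497, 6.48 ± 0.158 and 7.58 ± 0.132 CPM, CPNE3 at 23.1 ± 10.3, 24.97 ± 0.485 and 27.7 ± 4.47 CPM and CPNE1 at 11.2 ± 2.10, 10.9 ± 1.97 and 10.05 ± 1.55 CPM (SD, n = 2). CPNE1 appeared under 2 gene IDs with identical values, and its division between them is uncertain. No tool called any of these copines, and 0, 0 and 1 of the 5 IDs had an unadjusted p under 0.05 in edgeR for vehicle against WT, AC1903 against WT and AC1903 against vehicle. In the rhomboid family and its epidermal growth factor partners 18 genes were tested, and edgeR called 0, with 2, 3 and 2 at an unadjusted p under 0.05. RHBDF1, an inactive rhomboid, stood at 56.4 ± 0.884, 44.6 ± 2.66 and 43.1 ± 6.74 CPM. DESeq2 called ERBB3, a receptor of this family, higher in vehicle than in WT (adjusted p = 0.0120; 10.3 ± 4.42 and 30.5 ± 15.2 CPM). It also called EGF, a product of distal tubule cells, which appears under 2 gene IDs, higher in AC1903 than in WT for one (adjusted p = 0.0159) and higher than in vehicle for the other (adjusted p = 0.0449).

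For the membrane protein families around GSG1 7 genes were tested, and edgeR called 0, with 2, 2 and 0 at an unadjusted p under 0.05. GSG1L, named for its likeness to GSG1, stood at 2.76 ± 0.657, 3.26 ± 0.108 and 2.33 ± 0.123 CPM in WT, vehicle and AC1903 (SD, n = 2), with no call by any tool. EMP2, an epithelial membrane protein, stood at 131 ± 5.23, 81.1 ± 7.24 and 78.6 ± 4.13 CPM, and DESeq2 called it lower in both AT1R Tg groups (adjusted p = 0.00729 and 0.00545). PERP, a membrane protein of epithelial cell junctions, stood at 18.5 ± 8.67, 43.6 ± 13.6 and 41.3 ± 9.41 CPM, and DESeq2 called it higher in vehicle than in WT (adjusted p = 0.0252).

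Neighbouring genes were examined to see whether the lower levels extended along the chromosome. In the RefSeq gene order of the assembly GRCr8, used for order alone, 23 of the 36 protein-coding genes within 3 places of a member were measured. Their median log2 difference from WT was 0.03 for vehicle and 0.01 for AC1903, and edgeR called 0 in any comparison, with 4 and 5 at an unadjusted p under 0.05 against WT, where 11.9% and 11.1% of all genes tested had one. Of those for vehicle, DES was lower than WT, and RESP18, ADAP2 and NDUFB6 were higher. For AC1903, DES and CHPF were lower, and RESP18, DNAJA1 and GRIN2B, the last close to the floor, were higher. DESeq2 called 2, DES as lower and the chaperone DNAJA1 as higher, and limma-voom 0. DES, which lies next to SPEG, was the only 1 of the 23 with all 4 AT1R Tg libraries below both WT libraries, an arrangement found in 10.2% of all genes tested. GMPPA, on the other side of SPEG, stood at 15.05 ± 0.0698 CPM in WT, 18.5 ± 3.81 CPM in vehicle and 17.0 ± 0.191 CPM in AC1903 (SD, n = 2).

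Around the other members no measured gene had every AT1R Tg library below WT. HEBP1 near GSG1 stood at 12.3 CPM in WT, 10.9 CPM in vehicle and 8.28 CPM in AC1903 (group means), and EMP1 on its other side at 309, 240 and 307 CPM. GNL2 next to RSPO1 stood at 34.3, 30.0 and 33.8 CPM and RHOT1 next to RHBDL3 at 50.0, 50.7 and 49.3 CPM. SPG7 near CPNE7 stood at 36.2, 43.9 and 39.8 CPM and NDUFB6 next to TMEM215 at 40.1, 53.5 and 44.7 CPM.

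**Figure D5:**
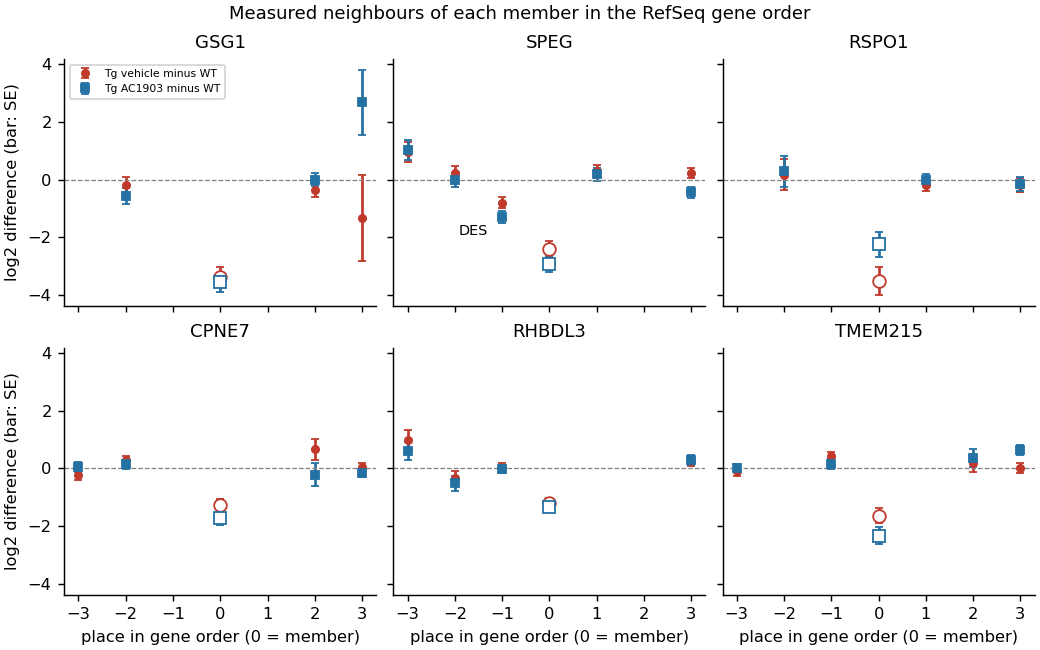
Log2 difference from WT (vertical axis, bars for SE) of each member (open symbols, place 0) and of its measured neighbours up to 3 places away in gene order (filled symbols), for AT1R Tg vehicle (red) and AT1R Tg AC1903 (blue). DES, at -0.80 and -1.30 beside SPEG, is the 1 neighbour with every AT1R Tg library below WT.

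The genes most like each member were found by the root mean square difference of centred log2 CPM over the 6 libraries, a description in which the libraries, their depth and their tissue makeup are shared. The nearest to RHBDL3 were PDPN, the podocyte surface protein podoplanin (0.0966 log2 units), PLTP, the phospholipid transfer protein (0.102), and PDE1B, a calcium-dependent phosphodiesterase (0.194). PDPN stood at 325 and 341 CPM in WT, 163 and 129 CPM with vehicle and 111 and 170 CPM with AC1903. PLTP stood at 594 and 605, 310 and 253, and 235 and 324 CPM. The nearest to CPNE7 were ARPP21 (0.240), DES (0.270) and TNNC1 (0.277). ARPP21 stood at 10.4 and 13.0 CPM in WT, 4.74 and 3.66 CPM with vehicle and 3.41 and 3.60 CPM with AC1903, and it was also second nearest to TMEM215 (0.324), after CPNE7 (0.316).

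GSG1 and RSPO1 had no such close companions. The nearest to GSG1 were SPEG (0.623), RSPO1 (0.627) and a KIF22 ID (0.772), and the nearest to RSPO1 were GSG1 (0.627), MSTN, the muscle growth inhibitor myostatin (0.630), and the same KIF22 ID (0.630). MSTN stood at 1.97 and 1.87 CPM in WT, 0.212 and 0.244 CPM with vehicle and 0.333 and 1.84 CPM with AC1903, so its 2 AC1903 libraries differed widely. The nearest to SPEG were 3 gene IDs of SMCO3 with identical values (0.371), at 2.58 and 2.20 CPM in WT and 0.400 to 0.991 CPM in the AT1R Tg libraries. Among the members themselves the closest pair was CPNE7 and RHBDL3 (0.280) and the farthest GSG1 and RHBDL3 (1.06).

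The level of each cell type's markers gives the setting for these values. Podocyte markers had a median log2 difference of -0.11 for vehicle and -0.15 for AC1903 against WT over 29 gene IDs, with 22 and 19 of them negative. EdgeR, DESeq2 and limma-voom called none of them. In edgeR 1 and 3 had an unadjusted p under 0.05, where 11.9% and 11.1% of all genes tested did. For 6 of the 29 all 4 AT1R Tg libraries lay below both WT libraries, where 10.2% of all genes tested had this arrangement. Glomerular endothelial markers had medians of -0.29 and 0.01 over 24 gene IDs of 22 symbols. ROBO4, with identical values, and CD34 were each counted under 2 IDs, and 1 CD34 ID was at 0 in AC1903 replicate 2. Parietal epithelial markers had medians of 0.73 and 0.58 over 11 genes, and proximal tubule markers 1.34 and 0.91 over 20 genes, none of either list at 0 in any library. Their part in the members' values was not tested.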

How the data were processed

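Libraries were made with a stranded mRNA kit from glomerular RNA of 6 rats, per the labels' protocols. The file of expected counts per Ensembl gene is the authors'. The submitters' processing notes name STAR 2.5.2b, RSEM 1.3.0 and the build Rnor_5.0; annotation release and read filters: not given in the sources used here. For 2 comparisons there are log2 fold changes that the authors deposited, per the file headers. Their adjusted p-values were likewise deposited by the authors, with a tool that no source here names. Symbols are the human ones of those tables.

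After rounding, expected counts were filtered by group (filterByExpr) and TMM-scaled (trimmed mean of M values). All 6 libraries entered edgeR's quasi-likelihood test (edgeR 4.0.16, R 4.3.3), which is two-sided and left 3 residual degrees of freedom. P-values were adjusted by Benjamini-Hochberg over the 13426 genes, with a threshold of 0.05. The fit was tested on simulated data with the same spread for all genes, and no result here rests on that. DESeq2 1.42.0 and limma-voom (limma 3.58.1) were run beside it. Ages differed within every group, so its 2 libraries came from different rats. Members and gene lists were chosen with earlier results of these data known. Named genes were the members, the 3 most alike to each, measured neighbours within 3 places, every other copine, up to 6 genes of smallest unadjusted p per list, and genes next to members in the ranking of gaps; part of them are given. Marker lists were podocyte, endothelial, mesangial and smooth muscle, parietal, renin cell, tubular, macrophage and nerve genes. RSEM divides reads between near-identical copies, so values of such genes are uncertain.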

Additional observations from a re-analysis of the deposited data

How the results depend on the processing

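Each member stayed below WT in both comparisons under all 15 alternatives, and 5 of 90 differences for vehicle and 6 of 90 for AC1903 moved by more than the SD between replicates. The choice of genes with all 4 AT1R Tg libraries below both WT libraries largely fixes this direction, so it is no support for the lower levels. In AC1903 against vehicle no member was called under any alternative, and 4 of 90 changes turned direction: GSG1 became 0.23 with age as a covariate, 0.07 without AC1903 replicate 1 and 0.17 without vehicle replicate 2, and RHBDL3 became 0.0051 without AC1903 replicate 1. Leaving out 1 library gave -0.60 to 0.17 for GSG1 and -0.34 to 0.0051 for RHBDL3. The cause was not tested. Counts of called genes depended on the tool and filter. For vehicle against WT the count was 10 in edgeR, 560 in DESeq2, 774 with no filter on low counts, and 4 each with age as a covariate, with the 2 groups alone and with the replicate number as a block; leaving out 1 library gave 1 to 530, the highest without vehicle replicate 1. For AC1903 against WT it was 5, with 181 in DESeq2, 464 with no filter, 21 with the 2 groups alone and 1 to 25 without 1 library. For AC1903 against vehicle it was 0, with 67 in DESeq2, 114 with no filter, 2 with the replicate block, 1 with age and 0 to 4 without 1 library. The labels do not say whether replicate numbers pair the samples. Deviations of same-numbered libraries correlated at -0.020, 0.0046 and -0.041 between groups, which cannot settle whether they shared a litter, day or batch. No member was called in AC1903 against vehicle with or without the block. With 1 library left in a group, it is assumed to vary like the others. Depth limits RSPO1 most, at 10 to 36 counts in the AT1R Tg libraries.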
